A study of Mus musculus with 7 samples.

Results

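The antioxidant enzymes of MIN6 cells were described here across 7 arrays: the superoxide dismutases Sod1, Sod2 and Sod3, catalase (Cat), the glutathione peroxidases Gpx1, Gpx2, Gpx3 and Gpx4, and the peroxiredoxins Prdx1 and Prdx3. These 10 genes, of 22911 gene symbols on the array, were taken by name, and their 12 probes were those whose transcript accession belongs to one of them. Prdx1 had 3 probes and each of the other 9 genes had 1. MIN6 is a mouse beta-cell line that came from an insulinoma of a mouse carrying the SV40 large T antigen, so it is a growing tumour line and not islet tissue. In the tested arm the cells were given Maidong polysaccharide extract (MPE) for 3 days (4 arrays), and in the control arm the vehicle, PBS, for 3 days (3 arrays). The medium of both arms held 2-mercaptoethanol, itself a reducing agent, beside fetal bovine serum and antibiotics. The MPE concentration used for the arrays is not given in the labels, nor whether replicates were separate cultures, so p-values reflect only how far these samples scatter, and that scatter may be technical.

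Superoxide dismutases turn superoxide into hydrogen peroxide, with SOD1 in the cytosol, SOD2 in the mitochondrial matrix and SOD3 outside the cell. Catalase in peroxisomes, the selenium-dependent glutathione peroxidases and the thioredoxin-dependent peroxiredoxins then remove the peroxide. Rodent beta cells are known for holding little catalase and glutathione peroxidase in comparison with liver, while their superoxide dismutases are less reduced. No other tissue was hybridised among the arrays used here, so that comparison with liver is not analysed here.

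The promoters below are shown because they belong to the genes at both ends of detection: Cat, near the background, and Gpx3, below it, against Gpx1 and Prdx1, far above it. Each is the 250 bases before the RefSeq start on build GRCm38.p6, and the Cat window lies on the minus strand at chr2:103485154-103485403, the Gpx3 window on the plus strand at chr11:54902604-54902853, the Gpx1 window on the plus strand at chr9:108338830-108339079 and the Prdx1 window on the plus strand at chr4:116685349-116685598. Capitals mark matches, on either strand, to the CCAAT box, the TATAAA box, the GC box GGGCGG, the antioxidant response element core TGACNNNGC or TGAGTCA, the site of the factor AP-1.
Cat: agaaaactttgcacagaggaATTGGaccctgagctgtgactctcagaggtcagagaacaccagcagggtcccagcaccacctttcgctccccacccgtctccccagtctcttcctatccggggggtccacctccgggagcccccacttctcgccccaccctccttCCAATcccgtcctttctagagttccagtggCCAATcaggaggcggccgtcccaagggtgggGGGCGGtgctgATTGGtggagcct
Gpx3: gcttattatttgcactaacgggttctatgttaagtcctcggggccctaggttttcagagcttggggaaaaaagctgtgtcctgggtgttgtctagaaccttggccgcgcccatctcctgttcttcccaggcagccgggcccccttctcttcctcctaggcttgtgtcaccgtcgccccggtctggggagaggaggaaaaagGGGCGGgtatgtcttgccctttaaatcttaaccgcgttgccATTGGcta
Gpx1: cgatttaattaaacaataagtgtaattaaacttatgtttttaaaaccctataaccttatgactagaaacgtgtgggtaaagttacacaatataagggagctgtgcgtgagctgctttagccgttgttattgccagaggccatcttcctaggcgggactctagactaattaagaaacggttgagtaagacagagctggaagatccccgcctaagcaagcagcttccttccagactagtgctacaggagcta
Prdx1: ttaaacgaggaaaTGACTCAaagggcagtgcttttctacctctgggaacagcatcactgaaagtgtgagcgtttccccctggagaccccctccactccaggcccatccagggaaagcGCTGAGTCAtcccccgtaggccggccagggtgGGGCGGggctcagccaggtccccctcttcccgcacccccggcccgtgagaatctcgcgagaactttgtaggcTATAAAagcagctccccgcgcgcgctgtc

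The Cat window held 4 CCAAT matches and 1 GGGCGG match. In the Gpx3 window there was 1 match to each of these, and the Gpx1 window matched none of the 5 motifs. The Prdx1 window held 1 TATAAA, 24 to 29 bases before the start, 1 GGGCGG and 2 TGAGTCA matches, of which the nearer to the start overlapped its only TGACNNNGC match. Among 32851 promoter windows of the same length, 33.8% held CCAAT, 12.4% TATAAA, 32.7% GGGCGG, 10.2% TGACNNNGC and 4.46% TGAGTCA. A match is a description of letters, not a site in use.

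Cell identity and array quality were as follows. All 12 beta-cell markers checked, Ins1, Ins2, Pdx1 and Mafa among them, were well above background on all 7 arrays. Of the 5 acinar markers none was so on all arrays and 4 were so on no array. Erythroid cells, which are rich in catalase, were checked by Hba-a1, which was well above background on all 7 arrays, and by Alas2, which was so on none. Gcg, Sst and Ppy, hormones of other islet cells, were well above background on all 7 arrays. The summed scaled level of 29 markers of other cell types was 51.2 to 59.1 on MPE arrays and 52.3 to 54.5 on vehicle arrays. That sum is of unlogged levels and includes probes not well above background. Its brightest probes weigh most, so it cannot show the content of any single cell type. The 4 MPE arrays each detected fewer of the 56605 probes (27944 to 28514) than did any vehicle array (29501 to 30122), and the part of this split in the Cat detection call was not tested. The MPE and vehicle arrays lay in different rows of 1 slide, which means that treatment and slide row cannot be told apart.

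Detection separated the genes. The scanner software calls a spot well above background by a threshold of its own array, and a spot can be set against the lowest signal so called on that array. Signals of different probes do not rank transcripts, because probes differ in how brightly they report: the 3 Prdx1 probes, all on 1 transcript, differed 12.4- to 13.7-fold within an MPE array and 12.6- to 14.9-fold within a vehicle array. The margin over background is therefore given gene by gene. Of the 10 genes, 8 were well above background on all 7 arrays, Cat on 6 and Gpx3 on none. Over the whole array, unnamed transcripts included, 19713 of 45478 genes had a probe well above background on all 7 arrays. Probes with an outlier-flagged value are left out of these 2 counts.

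**Figure D1:**
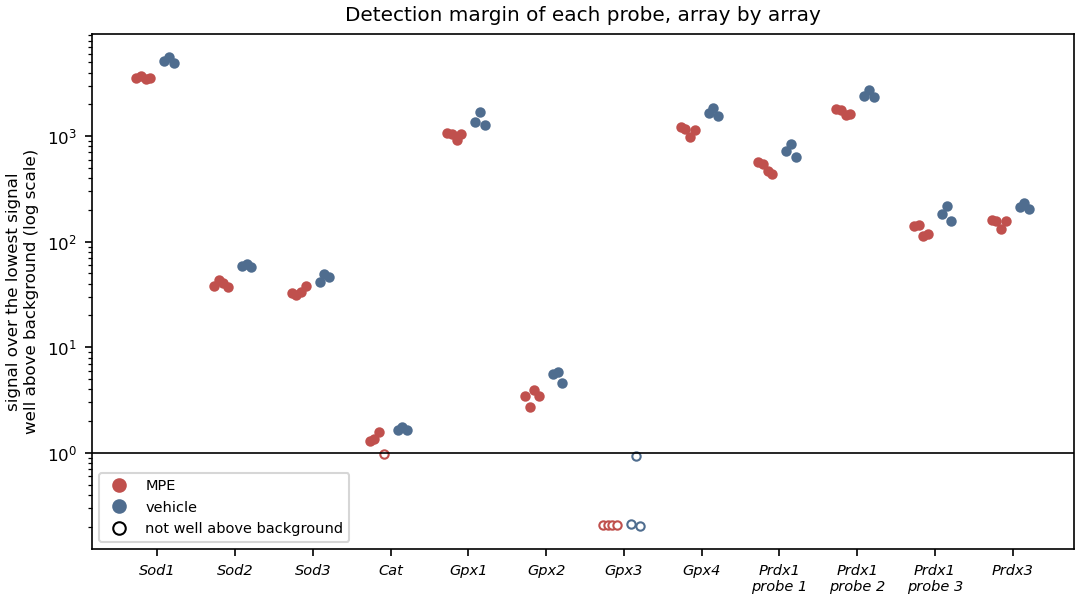
Signal of each antioxidant enzyme probe divided by the lowest signal called well above background on the same array (log axis), with MPE arrays left of vehicle arrays and open circles for spots not well above background. Cat lies at 0.976 to 1.59 on MPE arrays and 1.64 to 1.76 on vehicle arrays and Gpx3 lies below 1 throughout. The lowest signal itself is higher on MPE arrays (20.6 to 24.4, against 12.6 to 15.5 on vehicle arrays), which lowers the MPE points of every probe.

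Catalase was the dimmest detected member relative to its array's background. Its background-subtracted signals were 27, 29.2, 38.7 and 20.1 on MPE arrays 1 to 4, against 21.7, 22.2 and 25.4 on vehicle arrays 1 to 3. The spot of MPE replicate 4 was the one not well above background. After scaling to the 75th percentile of each array, the Cat levels on the log2 scale were -3.77, -3.71, -3.44 and -4.20 with MPE and -3.90, -3.91 and -3.90 with vehicle. The MPE arrays thus lay on both sides of the tightly placed vehicle arrays, with SDs of 0.31 (n = 4) and 0.0062 (n = 3) on that scale. The fitted MPE level was 1.09 times the vehicle level (95% interval 0.832 to 1.43, limma adjusted p = 1). It rested on single arrays: the log2 difference was 0.12 over all arrays, 0.26 without MPE replicate 4 (limma adjusted p = 0.926) and 0.01 without MPE replicate 3. In the authors' value table, the log2 values of Cat were 4.769, 4.817, 5.01 and 4.209 with MPE and 4.694, 4.657 and 4.643 with vehicle, with the same array highest and the same array lowest.

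The glutathione peroxidases differed in detection. Gpx1, the cytosolic and mitochondrial enzyme that is the most widespread of the family, had signals of 21968, 22648, 22198 and 21437 on MPE arrays and 17930, 21228 and 19922 on vehicle arrays. These were 911 to 1060 times the lowest well-above-background signal with MPE and 1280 to 1690 times with vehicle, so the Gpx1 probe gave no low reading in this line. Scaled, Gpx1 was 5.89, 5.89, 5.73 and 5.86 with MPE and 5.79, 5.99 and 5.71 with vehicle on the log2 scale. The MPE arrays all lay inside the vehicle range, and the MPE level was 1.01 times the vehicle level (0.879 to 1.15, limma adjusted p = 1).

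Gpx4, which reduces lipid hydroperoxides in membranes, was likewise far above background, at 974 to 1210 times the lowest well-above-background signal with MPE and 1550 to 1860 times with vehicle. Its log2 levels were 6.08, 6.06, 5.82 and 6.0 with MPE and 6.07, 6.13 and 5.99 with vehicle. The groups overlapped, with a ratio of 0.953 (0.837 to 1.09, limma adjusted p = 1). Gpx2, the enzyme typical of gut epithelium, was well above background on all arrays by a small margin, 2.69 to 3.90 times with MPE and 4.56 to 5.88 times with vehicle. Its log2 levels were -2.38, -2.72, -2.14 and -2.38 with MPE and -2.13, -2.18 and -2.43 with vehicle. MPE replicate 2 was the lowest array, and the ratio of 0.893 (0.705 to 1.13) had the smallest unadjusted p of the 9 genes, 0.297, with a limma adjusted p = 1. Its log2 difference of -0.16 depended on single arrays, at -0.06 without MPE replicate 2, -0.25 without MPE replicate 3, -0.11 without vehicle replicate 1 and -0.25 without vehicle replicate 3.

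Gpx3, the secreted plasma enzyme made mostly by kidney, was below the well-above-background call on each of the 7 arrays. Its signals were 4.33, 4.50, 5.01 and 4.28 on MPE arrays, against 2.76, 11.7 and 3.17 on vehicle arrays. All but vehicle replicate 2 lay at about the same share of the lowest well-above-background signal, 0.205 to 0.210. With neither group well above background no ratio is given, and Gpx3 was not among the genes tested. Its level has only a bound on these arrays.

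The superoxide dismutases were well above background on all 7 arrays. Sod1, the copper-zinc enzyme, had log2 levels of 7.65, 7.69, 7.65 and 7.63 with MPE and 7.71, 7.72 and 7.66 with vehicle. It was the most precisely measured gene of the set, with a ratio of 0.971 (0.900 to 1.05, limma adjusted p = 1). Sod2, the manganese enzyme, was at 1.09, 1.28, 1.24 and 1.06 with MPE and at 1.25, 1.21 and 1.24 with vehicle. Here 2 MPE arrays fell below the vehicle range and 1 lay above it, for a ratio of 0.953 (0.848 to 1.07, adjusted p = 1 by limma). Sod3, the extracellular enzyme, was at 0.87, 0.81, 0.95 and 1.08 with MPE and at 0.75, 0.88 and 0.91 with vehicle. Its ratio was 1.06 (0.925 to 1.21, limma adjusted p = 1), again with overlapping groups.

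**Figure D2:**
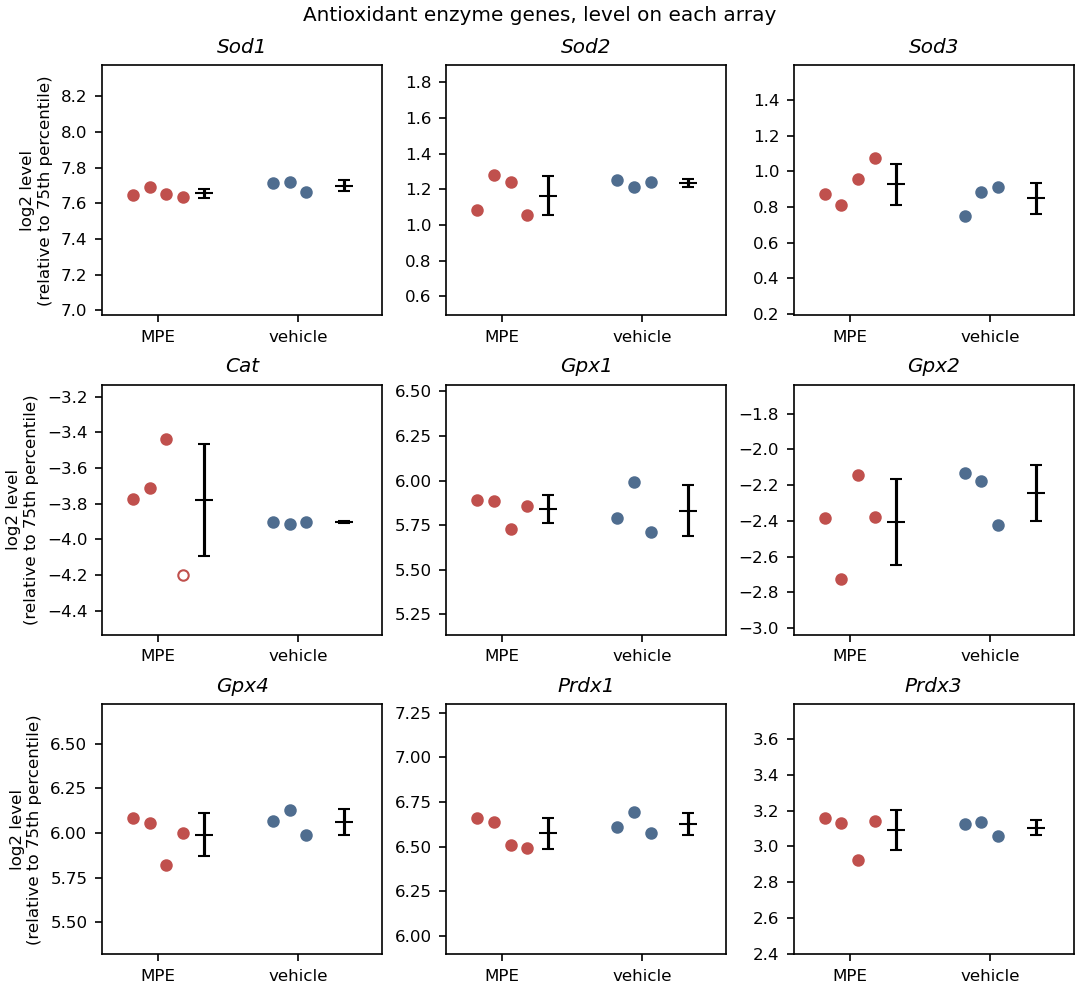
Log2 level of the 9 tested antioxidant enzyme genes on each array, relative to the array's 75th percentile, in panels of equal height; points are arrays (open where not well above background), and bars show mean and SD of 4 MPE and 3 vehicle arrays. The groups overlap in each panel, and the Cat levels of MPE spread from -4.20 to -3.44 around vehicle levels near -3.90.

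The peroxiredoxins allowed a check between probes. Prdx1, the cytosolic enzyme, had log2 levels of 6.66, 6.64, 6.51 and 6.49 with MPE and 6.61, 6.70 and 6.58 with vehicle by its brightest probe, a ratio of 0.964 (0.864 to 1.07, limma adjusted p = 1). Fitted on their own among 28874 probes, the other Prdx1 probes, A_51_P353183 and A_66_P113839, gave ratios of 0.976 (0.810 to 1.18) and 1.00 (0.826 to 1.21). Over the 7 arrays the 3 probes moved alike, with Pearson correlations of 0.920, 0.911 and 0.875 between pairs. These points share RNA, array and scaling, so the values are a description. Prdx3, the mitochondrial matrix enzyme, was at 3.16, 3.13, 2.92 and 3.14 with MPE and at 3.12, 3.13 and 3.06 with vehicle. MPE replicate 3 was the lowest array, and the ratio was 0.989 (0.877 to 1.12, limma adjusted p = 1).

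**Figure D3:**
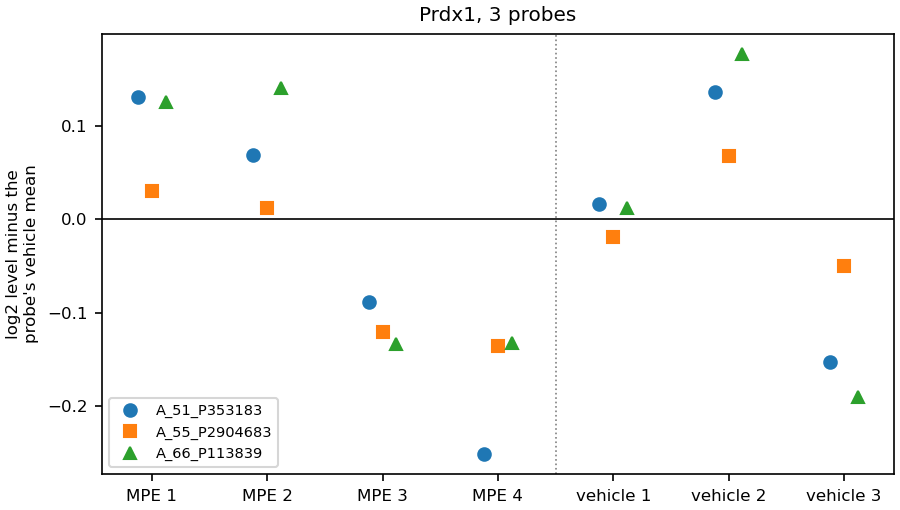
Log2 level of the 3 Prdx1 probes on each array minus the probe's own mean over the 3 vehicle arrays, with the MPE arrays left of the dotted line. All 3 probes are below that mean on MPE replicates 3 and 4 and on vehicle replicate 3, and above it on MPE replicates 1 and 2 and vehicle replicate 2.

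Across the set, none of the 9 tested genes passed limma's adjusted threshold of 0.05 in either direction, where 0.00453% of all 22060 genes tested were called (1 gene, the odorant receptor gene Olfr867, higher with MPE and below the well-above-background call on all 3 vehicle arrays). At an unadjusted p under 0.05 there were 0 of the 9 genes, against 4.11% of all genes. Of the 9 genes, 3 had a fitted difference above 0, as 42.3% of all genes did, and 6 below 0, as 57.7% did. Their median log2 difference was -0.04, beside -0.02 over all genes. With normexp background correction 6 of the 9 lay above 0, as did 45.2% of all genes, and Sod1, Prdx1 and Prdx3 stood at 0.01, 0.01 and 0.03. Median scaling moved every gene down by the same amount, which put Gpx1 at -0.06, the median of all genes at -0.09 and 17.1% of all genes above 0. In 0 of the 9 genes did the MPE arrays lie wholly to one side of the vehicle arrays, which they did in 4.53% of all genes (1.17% with MPE higher and 3.36% with MPE lower). In the main fit, the 95% intervals of all 9 genes lay within 1.5-fold in both directions, from 0.705 to 1.43, as did those of 80.7% of all genes. Such intervals bound a change and do not show equal levels. For Cat, near the background, the width depended on the setting. Its standard error was 0.164 in the main fit, 0.219 with the trended robust variance and 0.0624 with normexp. The bound given for Cat is that of the main fit and is not carried over to other settings.

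Slide columns 1, 2 and 4 each held 1 array of both groups, which gave values within a column. Sod1 was lower with MPE in all 3 columns, by log2 differences of -0.07, -0.02 and -0.03. A single sign across the columns was seen in 1 of the 9 genes and in 23.3% of all genes. Cat differed by 0.13, 0.20 and -0.30 in these columns, and Gpx2 by -0.25, -0.55 and 0.04. With the column as a block, the log2 difference was 0.01 for Cat, against 0.12 without it, and -0.25 for Gpx2, against -0.16 (both limma adjusted p = 1). MPE replicate 3 was alone in its column and gives this fit no information on MPE.

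By likeness over the 7 arrays, among 12933 named genes (12932 for Gpx1) well above background on all of them, the genes closest to Cat were Tm2d1, Rnf32 and Rad17, with Pearson correlations of 0.986, 0.983 and 0.974. Among those closest to Gpx1 were Dcaf5 and H2bc15, with correlations of 0.975 and 0.969. Within the enzyme set, Gpx1 correlated at 0.761 with Gpx4, 0.707 with Prdx3 and 0.658 with Prdx1, and Cat at -0.685 with Prdx3 and 0.52 with Sod2. Cat itself was not well above background on MPE replicate 4 and lay near the background on the other arrays, so its correlations rest on such spots. With 7 arrays, a search over this many genes returns high values, and the arrays share 1 slide and 1 scaling, so all these correlations are descriptions.

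The wider redox system was read through 7 lists of other genes. Of 63 listed genes, 61 had a named probe and 50 passed the detection filter. Of these 50, none passed limma's adjusted threshold in either direction, 22 lay above 0 and 28 below 0, and their median log2 difference was -0.02. Their 95% intervals were within 1.5-fold for 48 of 50, with Gpx7 and Nox1 the exceptions. In 3 of the 50, Prdx5, Idh2 and Ccs, the MPE arrays all lay below the vehicle arrays, which they did in 3.36% of all genes. At an unadjusted limma p under 0.05 there was 1 of the 50, Ccs, beside 4.11% of all genes.

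**Figure D4:**
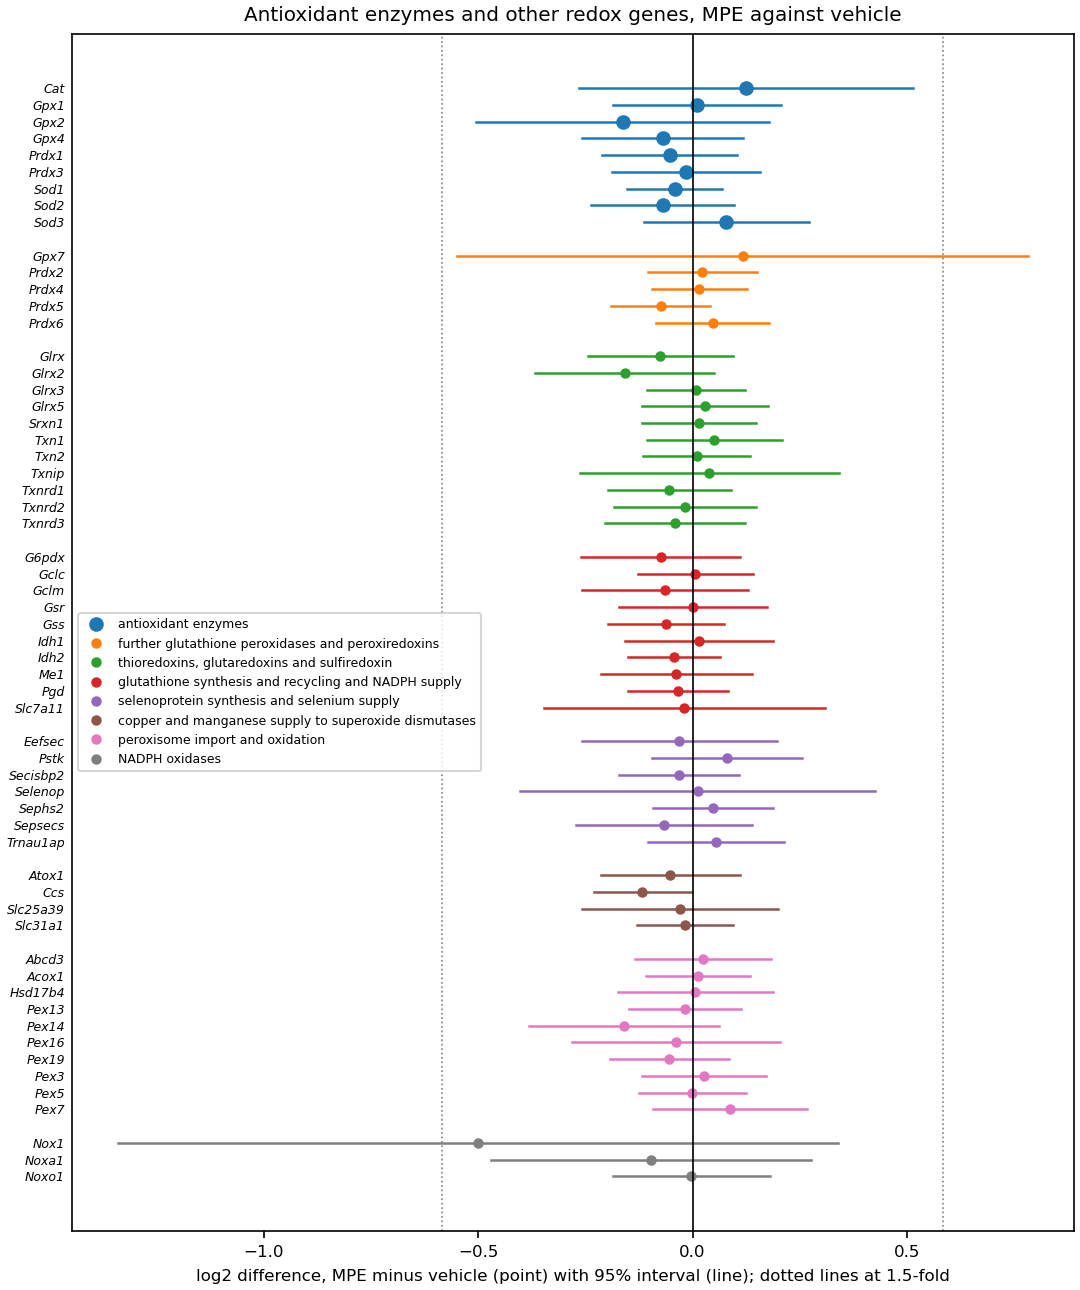
Log2 difference, MPE minus vehicle (points), with its 95% interval (lines) for the 9 tested antioxidant enzyme genes, at the top, and 50 further redox genes, coloured by list; dotted lines mark 1.5-fold in either direction. The intervals of Gpx7 and Nox1 cross a dotted line, and the interval of Ccs is the one that does not reach 0.

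Of the further glutathione peroxidases and peroxiredoxins, 5 of 8 were tested. Gpx6 and Gpx8 were well above background on no array and Gpx5 on 1. Prdx5, a peroxiredoxin of mitochondria, peroxisomes and cytosol, had log2 levels of 4.96, 4.92, 4.88 and 4.95 with MPE and 5.03, 5.02 and 4.96 with vehicle, with a ratio of 0.95 (0.876 to 1.03, limma adjusted p = 1). Prdx6, which also reduces phospholipid peroxides, stood at a ratio of 1.03 (0.943 to 1.13, adjusted p = 1 by limma).

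All 11 thioredoxin, glutaredoxin and sulfiredoxin genes were well above background on all arrays, and none passed. The mitochondrial glutaredoxin Glrx2 and the cytosolic Glrx led this list by p, with ratios of 0.896 (0.776 to 1.03) and 0.949 (0.844 to 1.07), both with a limma adjusted p = 1. Of the glutathione and NADPH genes 10 were tested and none passed. Glutathione synthetase (Gss) and the mitochondrial NADPH source Idh2 came first by p, at 0.958 (0.873 to 1.05) and 0.970 (0.901 to 1.05). Both had a limma adjusted p = 1.

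The glutathione peroxidases of the member set, Gpx1 to Gpx4, need selenocysteine. All 7 genes of selenoprotein synthesis and selenium supply were detected on every array. None passed, and the kinase Pstk and the tRNA-associated protein Trnau1ap had ratios of 1.06 (0.936 to 1.19) and 1.04 (0.931 to 1.16), each with a limma adjusted p = 1. The metal-supply genes for superoxide dismutases gave the smallest p of all lists. Ccs, the chaperone that loads copper into SOD1, was at 3.13, 3.20, 3.12 and 3.17 with MPE and at 3.27, 3.27 and 3.28 with vehicle on the log2 scale. All 4 MPE arrays lay below all 3 vehicle arrays. Its ratio was 0.922 (0.853 to 0.997), with an unadjusted p = 0.0435 and a limma adjusted p = 1. Atox1, another copper chaperone, stood at 0.965 (0.862 to 1.08, limma adjusted p = 1).

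In the list of peroxisome import and oxidation, the compartment of catalase, all 10 genes were detected on all arrays and none passed. The import-docking gene Pex14 stood at 0.895 (0.767 to 1.04) and the import receptor gene Pex7 at 1.06 (0.938 to 1.2), both with a limma adjusted p = 1. These 10 genes were read on the same arrays as Cat, and any link to its level was not tested. Of 12 NADPH oxidase genes, which make superoxide or peroxide, 11 had a named probe and 3 passed the detection filter. Nox1, well above background on 6 arrays, was at -3.70, -3.48, -4.73 and -3.53 with MPE and at -3.04, -3.16 and -3.88 with vehicle, for a ratio of 0.707 (0.395 to 1.27, limma adjusted p = 1). Noxa1, an activator of Nox1, stood at 0.935 (0.722 to 1.21, limma adjusted p = 1). Cybb and Cyba, subunits of the phagocyte oxidase, were well above background on 1 array each.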

How the data were processed

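Cy3-labelled cRNA made from total RNA of each sample was hybridized to Agilent arrays in 1 colour, per the labels' protocols. The authors deposited Agilent Feature Extraction output. Its processed intensities were background-subtracted and detrended within the array, per the file headers, which name version 11.5.1.1; version 10.5.1.1 stands in the submitters' processing notes. The authors also deposited a table of log2 values by probe. Its columns correlated at 0.9996 or more with their own array's log2 intensity and shared a median of 4.438, as after quantile normalization without centring; the software that made it is not stated in the labels or headers used here.

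Control spots and 611 values flagged as outliers were dropped; 0 were saturated. Spots of a probe were averaged as log2 processed intensity, and the 75th percentile of the array was subtracted. The filter required a call well above background on 3 or more arrays and left 28874 probes. Each gene took its brightest probe, giving 22060 genes. RefSeq transcripts (GRCm38.p6, also the source of the promoters) named 32994 of 56605 probes. For MPE against vehicle, a limma model (version 3.58.1, R 4.3.3; lmFit, eBayes) had treatment alone as its term, with Benjamini-Hochberg adjustment over all genes and a threshold of 0.05. The model was also run on simulated data with independent noise for each gene and array. Such data lack deviations that genes share, so that run cannot show how the model behaves where arrays share them. Precision is limited by the number of arrays.

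The members and lists were chosen with earlier results of these data known. Every member was named, with the genes of the 2 smallest p in each list, the 3 genes most like Cat and Gpx1, and any called gene, apart from items that are not reported here. The values of Gpx5, Gpx6, Gpx7, Gpx8, Cybb, Cyba and Nox3 were chosen after they were seen. Alternatives covered scaling, normexp (on median spot intensity), the value table, filters, probe summary, variance, weights, blocks, arrays left out and a threshold of 0.01.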

Additional observations from a re-analysis of the deposited data

Results flagged for a closer look

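Prdx3 on MPE replicate 3 stood apart from the other MPE arrays, with a log2 level of 2.92 against 3.13 to 3.16 on the other 3. Of 23 genes checked in the MPE group, 1 stood apart in this way, and chance would give about 1.15.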

How the results depend on the processing

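None of the 9 antioxidant enzyme genes was called under any alternative, and 13 of their recomputed differences changed direction. The smallest limma adjusted p was 0.565, for Cat with the replicate block (log2 difference 0.26). MPE replicate 4 has no same-numbered vehicle array, so it gives that fit no information on MPE. Without that array, Cat had the same log2 difference of 0.26. Gpx1 turned to -0.0596 with median scaling, a uniform offset that put the median of all genes at -0.0857, against -0.0159, and to -0.0288 with array weights. With normexp, Sod1, Prdx1 and Prdx3 turned to 0.013, 0.0111 and 0.0269. Prdx3 was 0.001 with array weights and 0.0404 with the slide column block, and the Prdx1 probe A_66_P113839 alone gave 0.0002. Without MPE replicate 3, Prdx3 was also at 0.0404, and that array, alone in its column, gives the block fit no information on MPE. With each array left out, Gpx1 ranged from -0.0485 to 0.0897 and Prdx3 from -0.0391 to 0.0404. Cat ranged from 0.0107 to 0.2638, Gpx2 from -0.2532 to -0.057, Gpx4 from -0.1062 to -0.0128, Sod1 from -0.0595 to -0.0321, Sod2 from -0.1072 to -0.0337, Sod3 from 0.0292 to 0.118 and Prdx1 from -0.0812 to -0.0194. Beyond median scaling and the slide column block, the cause of the turns was not tested.

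The call on all genes, 1 higher and 0 lower, was 0 higher with normexp, the filter on all 7 arrays (which also removes Cat), the replicate block and the slide column block. It was 3 higher with the trended robust variance, 3 higher and 1 lower with array weights, and 2 lower with every probe on its own. With each array left out it was 0 to 3 higher and 0 to 1 lower. With no filter 9619 were higher and 349 lower, among them Gpx6 and Nox3 (2 pathway genes, higher), which were well above background on no array; that setting tests probes lying at each array's floor. Same-numbered arrays had correlations of their deviations from the group means of 0.247, 0.0509 and 0.413. With vehicle replicates 1, 2 and 3, MPE replicate 1 stood at 0.247, 0.126 and -0.317 and MPE replicate 2 at 0.306, 0.0509 and -0.313. MPE replicate 3 stood at -0.334, -0.15 and 0.413 and MPE replicate 4 at -0.182, -0.0108 and 0.172. MPE replicates 1 and 2 thus had signs opposite to those of MPE replicates 3 and 4. The main fit has no term for this shared pattern, and the replicate numbers were not taken to pair the samples in it. Not every array correlated best with its own number.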
